A study of Homo sapiens with 2 samples.

Results

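The protein disulfide isomerases and ERO1 oxidases of the endoplasmic reticulum (ER) were examined in WT and PERK-KO HEK293 cells, a human embryonic kidney line. The set comprised 8 isomerase-family genes (P4HB, PDIA3, PDIA4, PDIA5, PDIA6, TXNDC5, ERP29 and ERP44) and 2 oxidase genes (ERO1L and ERO1LB, now named ERO1A and ERO1B). They were looked up by gene symbol, and all 10 were found once in each of the 2 gene tables, among 25277 rows. PERK, encoded by EIF2AK3, is an ER stress sensor kinase that phosphorylates the translation initiation factor eIF2α. WT cells and PERK-KO cells, the latter made with CRISPR-Cas9 and grown from single cells as clones, were both kept for 12 h in OXPHOS medium, in which galactose and pyruvate stand in for glucose so that ATP comes from oxidative phosphorylation. Both lines were at passages 15 to 20. With 1 library per genotype and a clonal KO line, genotype, clone and culture cannot be told apart, no p-value can be given, and no time point or medium without this treatment was measured.

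Proteins that enter the ER acquire disulfide bonds by passing electrons from their cysteines to a disulfide isomerase of the thioredoxin fold. The same enzymes also break and re-form wrong pairings. An isomerase that has been reduced in this way is re-oxidised by ERO1, a flavoenzyme that hands the electrons to molecular oxygen and releases hydrogen peroxide, and the peroxiredoxin PRDX4 can turn that peroxide into further disulfides. Many of these genes are known targets of the unfolded protein response, whose other sensors, IRE1 and ATF6, act through promoter elements in ER chaperone genes.

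Levels are given as FPKM, fragments scaled by exon length and by the number of mapped reads, which is a measure of transcript and not of protein. The limits printed beside each value are those deposited with it, and they cover the error of the estimate within 1 library only. Intervals of fold changes, ratios and shares, here called counting intervals, were propagated from these limits and cover the same error. The width of the limits did not follow counts alone. In WT cells PDIA6, at an FPKM of 170 and 2279 bases, had limits like those of 1771 fragments. PDIA4, at 85.9 and 2767 bases, had limits like those of 4743 fragments. A gene was called higher or lower when its FPKM differed by more than 1.5-fold, among the 14594 rows that reached an FPKM of 1 in either library. The read total of each library is unknown. The limits of the 10 genes were as wide as those of counts of 291 (PDIA5) to 12258 (P4HB) fragments in WT cells and of 372 (PDIA5) to 16557 (PDIA4) in the PERK-KO library, and their distance from the value was 1.55% to 11.7% of it. EIF2AK3 itself had an FPKM of 5.61 (5.11 to 6.12) in the WT library and 3.89 (3.44 to 4.34) in the PERK-KO library, a log2 fold change of -0.53 that was not called. FPKM also counts transcripts of a disrupted gene. Of 6 genes expected in HEK293 cells, 4 reached an FPKM of 1 in the WT library and 5 in the PERK-KO library. NEFM (0.662 and 5.21) and PAX2 (0.981 and 0.748) were those below 1 in at least 1 library. The summed FPKM of the 6 was 1343 in the WT library and 1056 in the PERK-KO library. Of 10 markers of adipocytes, liver, blood, fibroblasts and muscle, 9 were below an FPKM of 1 in both libraries, 5 of them at 0, and the sum was 2.01 and 1.80. The remaining marker, the adipocyte gene ADIPOQ, had 1.68 and 1.42.

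Transcripts of the disulfide isomerases and ERO1 oxidases were more abundant in PERK-KO cells, with ERP29 as the exception. In bulk RNA, more cells that express a gene and more RNA per cell cannot be told apart. All 10 genes passed the filter on low values, and 5 of them (PDIA4, ERO1LB, ERO1L, PDIA6 and PDIA5) were called higher, whereas 10.1% of all tested genes were. None was called lower, in comparison with 7.54% of all tested genes. At a 2-fold threshold the calls were PDIA4 and ERO1LB, and 3.28% of all tested genes passed it upwards and 2.08% downwards. The limits of both libraries were also separate for each of the 5 genes called higher at 1.5-fold, as for 7.9% of all tested genes upwards and 5.39% downwards. The confidence limits of the libraries did not overlap for any of the 10 genes, with 9 higher and ERP29 lower in PERK-KO cells. Such separation was common, as it was seen upwards in 26.1% and downwards in 18.7% of all tested genes. The median log2 fold change was 0.58 over the 10 genes and 0.04 over all tested genes. Their summed FPKM was 863 (850 to 876) in the WT library and 1449 (1430 to 1467) in the PERK-KO library, 1.68 times as much. PDIA4 accounted for 45.3% of the added 585 FPKM, and PDIA4, P4HB and PDIA6 together for 84.0%. Over the 9 genes other than PDIA4 the sum was 1.41 times as high.

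**Figure D1:**
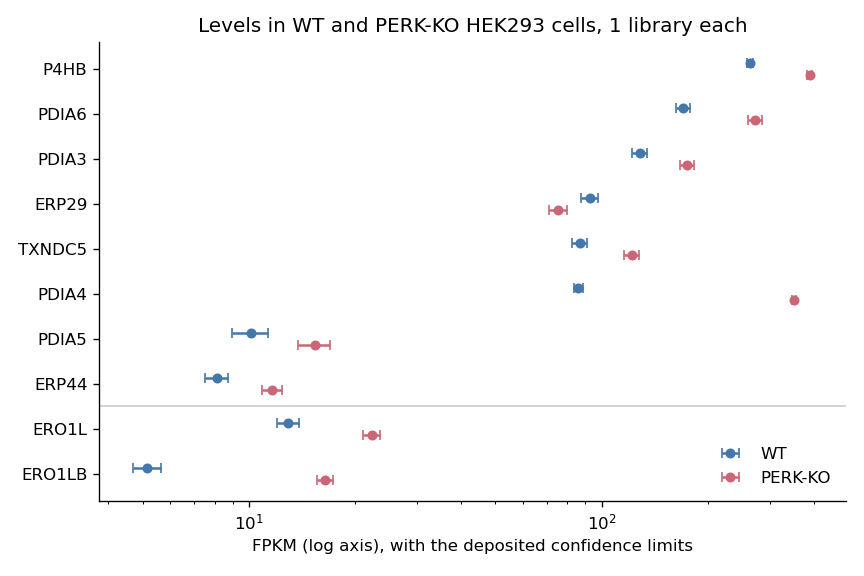
FPKM (log axis) of each gene in WT (blue) and PERK-KO (red) HEK293 cells, 1 library each, with isomerase-family genes above the grey line and ERO1 oxidases below it; bars are the deposited confidence limits. The red point lies to the right of the blue one for 9 genes and to the left for ERP29, and PDIA4 moves from 85.9 to 351.

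PDIA4, also known as ERp72, is an isomerase with several thioredoxin-like domains that works in complexes with BiP, and it showed the largest change of the 10 genes. Its FPKM was 85.9 (83.4 to 88.4) in the WT library and 351 (345 to 356) in the PERK-KO library. The PERK-KO value was 4.08 times the WT value (counting interval 3.95 to 4.22, log2 fold change 2.03 ± 0.02 SE), at percentile 98.8 of all tested genes. PDIA4 lies on chromosome 7 from 148700154 to 148725782 (GRCh37, minus strand), with 10 exons in its canonical transcript of 2767 bases, and no other row of the tables overlaps it.

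P4HB, the archetypal isomerase PDI and also the β subunit of prolyl 4-hydroxylase, was the most abundant of the 10 in both libraries. Its FPKM was 263 (259 to 268) in the WT library and 389 (382 to 395) in the PERK-KO library. The ratio of 1.48 (1.44 to 1.51) lay just under the threshold, and P4HB was not called. The gene lies on chromosome 17 from 79801034 to 79818544 (GRCh37, minus strand, 11 exons). PDIA6 (also P5), an isomerase that acts on BiP clients and on the stress sensors, had 170 (162 to 178) and 272 (259 to 284). It was called higher with a ratio of 1.60 (1.497 to 1.70). The PDIA6 row, on chromosome 2 from 10923517 to 10952960 (minus strand, 13 exons), shares 1720 bases with ATP6V1C2, whose FPKM was 0.444 and 1.09, and whether reads were counted by strand is not given in the sources used here. PDIA3, or ERp57, works with calnexin and calreticulin on glycoproteins. Its values were 128 (122 to 134) and 175 (166 to 183), a ratio of 1.36 (1.28 to 1.45) that was not called. It lies on chromosome 15 from 44038590 to 44064804 (plus strand, 13 exons). PDIA3 has a near-identical processed copy, PDIA3P, with an FPKM of 40.0 (38.0 to 42.1) and 57.1 (54.5 to 59.7), and how reads were shared between them is uncertain. The copy had a log2 fold change of 0.51, close to the 0.45 of PDIA3.

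TXNDC5, or ERp46, an isomerase that introduces disulfides rapidly, had 86.7 (82.4 to 91.0) in the WT library and 122 (116 to 128) in the PERK-KO library, a ratio of 1.404 (1.31 to 1.503) that was not called. It lies on chromosome 6 from 7881483 to 7911047 (minus strand, 10 exons). The readthrough row BLOC1S5-TXNDC5 covers the whole of TXNDC5 and was listed at 4.85e-05 and 0.439. BMP6, with 4.90 and 4.54, shares 479 bases with TXNDC5. How reads were divided between these rows is uncertain. PDIA5, or PDIR, a less abundant isomerase, had 10.2 (8.98 to 11.4) and 15.4 (13.8 to 17.0). Its ratio of 1.51 (1.30 to 1.76) lay just above the threshold, and its interval was the widest of the 10 on the log2 scale. It lies on chromosome 3 from 122785856 to 122880953 (plus strand, 17 exons). PDIA5 and P4HB thus fell on opposite sides of the threshold with overlapping intervals, and PDIA5 was no longer called when 1 FPKM was added to both values or when the libraries were rescaled to a common median.

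ERP44 and ERP29 are family members with other duties. ERP44 retrieves ERO1 and other proteins that lack an ER retention signal from the early secretory pathway. Its FPKM was 8.12 (7.53 to 8.71) in the WT library and 11.6 (10.9 to 12.4) in the PERK-KO library, a ratio of 1.43 (1.30 to 1.58) that was not called. Its log2 fold change was 0.52, or 0.33 after the length correction, in which the running median of all tested genes over transcript length is subtracted. It lies on chromosome 9 from 102741463 to 102861330 (minus strand, 12 exons). ERP29 has a thioredoxin fold without the redox-active cysteine pair and serves as an escort for secretory proteins. It was the exception, with 92.5 (87.4 to 97.6) in the WT library and 75.3 (70.8 to 79.8) in the PERK-KO library, a log2 fold change of -0.30 (-0.41 to -0.18) at percentile 20.1 of all tested genes. The WT value was 1.23 times the PERK-KO value, so ERP29 was not called. Its log2 fold change moved to -0.15 after the same correction. It was -0.09 when each library was divided by its sum, which moved the median of all tested genes from 0.04 to 0.24. It lies on chromosome 12 from 112451152 to 112461024 (plus strand), and its canonical transcript, with 1623 bases in 3 exons, is the shortest of the 10.

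Both ERO1 oxidases rose. ERO1L (ERO1α), the widely expressed form that is also known as a hypoxia-responsive gene, had an FPKM of 12.96 (12.05 to 13.9) in the WT library and 22.3 (21.0 to 23.6) in the PERK-KO library, a ratio of 1.72 (1.57 to 1.88). ERO1LB (ERO1β), known for its high expression in pancreatic islets, had 5.16 (4.70 to 5.63) and 16.5 (15.6 to 17.4), a ratio of 3.195 (2.88 to 3.54) and a log2 fold change of 1.68 at percentile 98.5 of all tested genes. ERO1LB was the least abundant of the 10 in WT cells. The ratio of ERO1L to ERO1LB went from 2.51 (2.23 to 2.79) in WT to 1.35 (1.25 to 1.45) in the PERK-KO library. Summed over both oxidases, ERO1 transcripts amounted to 2.14% (2.02 to 2.27) of the summed isomerase-family FPKM in WT cells and to 2.75% (2.64 to 2.87) in the PERK-KO library. The limits of these proportions did not overlap between the libraries. The length correction lowered the log2 fold change of ERO1L from 0.78 to 0.59 and that of ERO1LB from 1.68 to 1.48. The proportions were not recalculated with this correction. It moved P4HB from 0.56 to 0.58 and PDIA6 from 0.68 to 0.72, and left PDIA4 at 2.03. PDIA3 went from 0.45 to 0.36 and TXNDC5 from 0.49 to 0.46. Both oxidases fell by more than any of these isomerases, so the 2.75% would be lower with the correction, by an amount not calculated. ERO1LB lies on chromosome 1 from 236378422 to 236445339 and ERO1L on chromosome 14 from 53108605 to 53162419 (GRCh37, both on the minus strand), each with 16 exons, and no other row overlaps either gene.

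**Figure D2:**
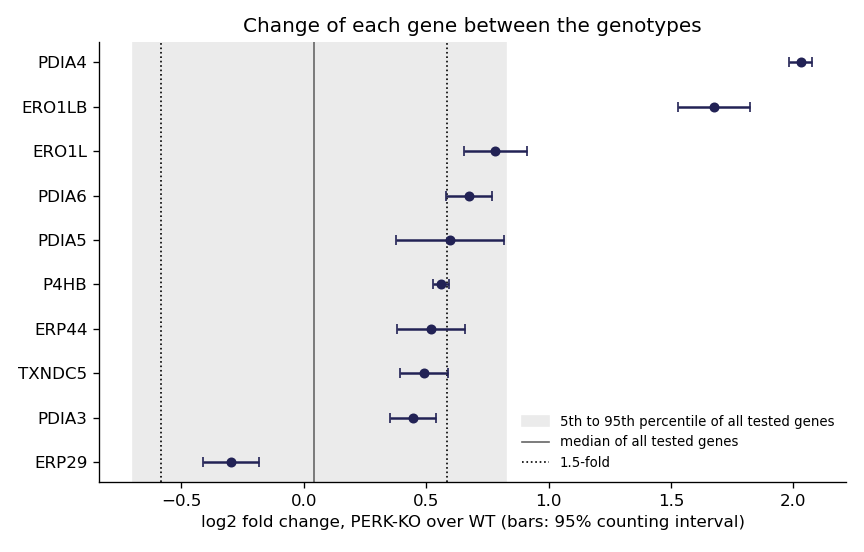
Log2 fold change (PERK-KO over WT) of each gene with its 95% counting interval, against the 5th to 95th percentile of all tested genes (grey, -0.70 to 0.82), their median (grey line) and the 1.5-fold threshold (dotted). PDIA4 and ERO1LB lie beyond the grey range, most of the other genes crowd around the upper dotted line, and ERP29 lies below 0.

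The order of the levels was not the same in both genotypes. In WT cells it ran P4HB, PDIA6, PDIA3, ERP29, TXNDC5, PDIA4, ERO1L, PDIA5, ERP44 and ERO1LB. The limits of ERP29 and TXNDC5 overlapped, as did those of TXNDC5 and PDIA4, and all other neighbours were separate. In PERK-KO cells PDIA4 took rank 2 in place of rank 6, ERP29 rank 6 in place of rank 4, and ERO1LB rank 8 in place of rank 10. Only ERO1LB and PDIA5 were neighbours with overlapping limits there. PDIA4 had 0.326 (0.315 to 0.337) times the FPKM of P4HB in WT cells and 0.903 (0.883 to 0.923) times in PERK-KO cells. As a share of the summed FPKM of the 10 genes, PDIA4 went from 9.96% (9.66 to 10.3) to 24.2% (23.8 to 24.6) and ERO1LB from 0.598% (0.545 to 0.651) to 1.14% (1.08 to 1.1995). The share of ERP29 was 10.7% (10.2 to 11.3) in the WT library and 5.20% (4.90 to 5.50) in the PERK-KO library. That of P4HB was 30.5% (29.9 to 31.1) and 26.8% (26.4 to 27.3), below its WT share although its FPKM was higher, because shares add up to a fixed total. The shares of PDIA6, PDIA5 and ERO1L had overlapping intervals in the 2 libraries, at 19.7% and 18.8%, 1.18% and 1.06%, and 1.501% and 1.54%.

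**Figure D3:**
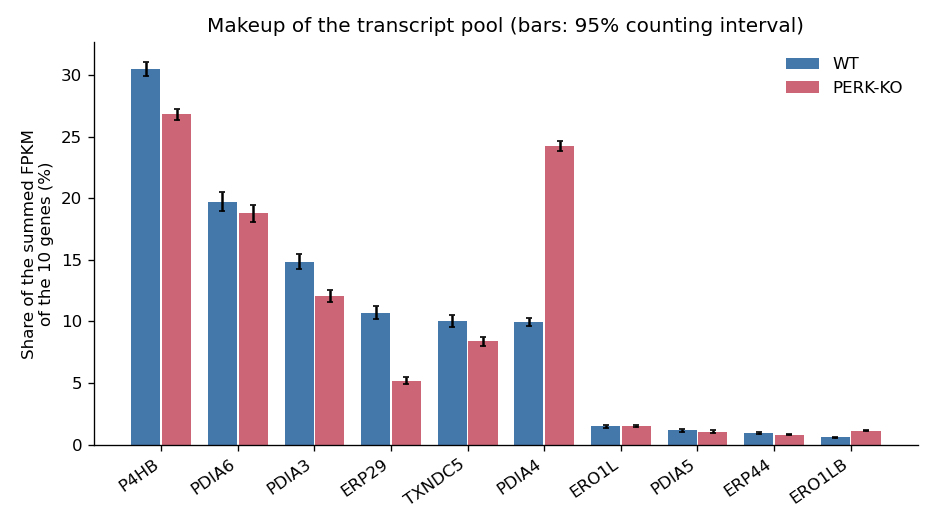
Share (%) of each gene in the summed FPKM of the 10 genes in WT (blue) and PERK-KO (red) cells, 1 library each; bars on the columns are 95% counting intervals. PDIA4 goes from 9.96% to 24.2%, P4HB from 30.5% to 26.8% and ERP29 from 10.7% to 5.20%.

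Genes at a similar WT level differed in their change. Of 449 other tested genes within 1.2-fold of the WT level of PDIA4, 4 had a higher log2 fold change, and of 1319 around ERO1LB, 2 did. The same count was 4 of 154 for P4HB, 7 of 242 for PDIA6, 13 of 320 for PDIA3 and 26 of 1284 for ERO1L. It was 22 of 447 for TXNDC5, 92 of 1413 for PDIA5, 177 of 1484 for ERP44 and 265 of 445 for ERP29. PDIA4, TXNDC5 and ERP29 had WT values between 85.9 and 92.5 and log2 fold changes of 2.03, 0.49 and -0.30. Among the 4 least abundant genes in WT cells, ERO1LB and ERO1L had 1.68 and 0.78, whereas PDIA5 and ERP44 had 0.60 and 0.52.

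**Figure D4:**
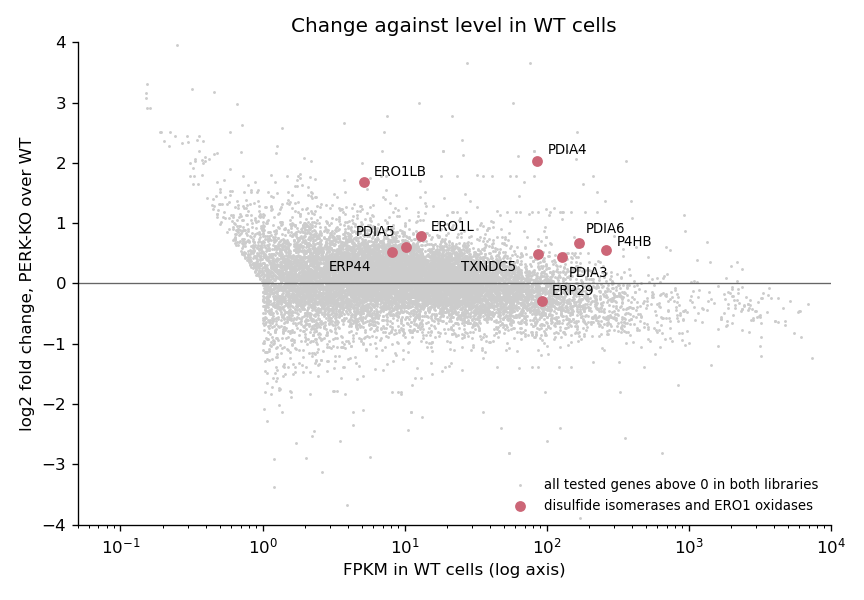
Log2 fold change (PERK-KO over WT) against FPKM in WT cells (log axis) for tested genes above 0 in both libraries (grey; 43 of 14439 lie beyond the axes) and for the 10 genes (red). PDIA4 (2.03) and ERO1LB (1.68) lie above most grey points at their level, and TXNDC5 and ERP29, at a similar WT level to PDIA4, are at 0.49 and -0.30.

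Promoter sequences were read for the 10 genes because ER chaperone genes carry known elements there. The ER stress response element (ERSE) is CCAAT, 9 bases and CCACG, bound by NF-Y with ATF6 or XBP1, and ERSE-II is ATTGG, 1 base and CCACG. The unfolded protein response element searched was TGACGTGG, and the C/EBP-ATF element, bound by ATF4, was TGATGNAAT. Windows from 250 bases before to 50 after an annotated start (RefSeq, GRCh38.p14) were given for 9 of the genes, 12 windows in all, and not for PDIA3. On either strand, ERSE was present in 0.0769% of 35116 windows, ERSE-II in 0.0541%, TGACGTGG in 0.729% and TGATGNAAT in 0.991%. The parts CCAAT and CCACG alone were present in 34.6% and 38.1% of the windows. An exact ERSE was found in 2 of the 9 genes, PDIA6 and ERO1LB, both called higher. TGACGTGG, which overlaps CCACG on the other strand, was found in TXNDC5, and ERSE-II and TGATGNAAT were found in none. PDIA4, with the largest change, is shown because neither of its 2 windows has an exact copy of any of the 4 elements. In the window printed, CCAAT occurs 3 times and CCACG once. The window not printed belongs to an internal start, 3381 bases downstream of the 5′ end. Each window below is printed in the direction of transcription, and each also matches GRCh37 exactly once. Capitals mark the ERSE parts in PDIA6 and in ERO1LB (where ERSE is on the opposite strand), TGACGTGG in TXNDC5, and CCAAT and CCACG on either strand in PDIA4.
PDIA6 (chr2:10812736-10813035, minus strand): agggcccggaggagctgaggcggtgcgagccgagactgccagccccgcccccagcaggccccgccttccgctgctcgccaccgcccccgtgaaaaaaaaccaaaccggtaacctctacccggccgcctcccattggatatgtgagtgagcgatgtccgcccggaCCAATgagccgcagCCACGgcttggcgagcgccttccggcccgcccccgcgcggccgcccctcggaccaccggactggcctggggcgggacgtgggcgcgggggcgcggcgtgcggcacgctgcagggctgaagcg
ERO1LB (chr1:236281909-236282208, minus strand): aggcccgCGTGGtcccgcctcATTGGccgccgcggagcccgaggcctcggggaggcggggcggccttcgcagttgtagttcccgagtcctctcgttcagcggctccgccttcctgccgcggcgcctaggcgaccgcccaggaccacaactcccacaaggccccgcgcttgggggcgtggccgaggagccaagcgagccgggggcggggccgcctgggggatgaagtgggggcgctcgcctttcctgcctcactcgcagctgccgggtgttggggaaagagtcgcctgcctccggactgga
TXNDC5 (chr6:7910028-7910327, minus strand): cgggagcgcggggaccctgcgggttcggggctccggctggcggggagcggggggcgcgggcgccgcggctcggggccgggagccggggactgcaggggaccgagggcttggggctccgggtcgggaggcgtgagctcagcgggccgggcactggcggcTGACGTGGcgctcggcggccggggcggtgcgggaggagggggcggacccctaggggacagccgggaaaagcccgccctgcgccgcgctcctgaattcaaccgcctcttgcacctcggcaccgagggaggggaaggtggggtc
PDIA4 (chr7:149028441-149028740, minus strand): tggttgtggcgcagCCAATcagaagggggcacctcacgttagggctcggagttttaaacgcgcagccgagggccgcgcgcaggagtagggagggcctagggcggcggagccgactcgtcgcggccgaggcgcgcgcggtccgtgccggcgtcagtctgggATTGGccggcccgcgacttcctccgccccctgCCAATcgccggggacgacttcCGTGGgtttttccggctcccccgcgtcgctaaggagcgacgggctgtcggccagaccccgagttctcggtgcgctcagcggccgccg

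Counted from the start, the element began at position -86 in PDIA6 and at -243 in ERO1LB, and TGACGTGG began at -92 in TXNDC5. The PDIA6 window belongs to the start 49 bases downstream of the 5′ end of the row in the gene tables, while another annotated start lies far upstream of that end and its window has no element. The TXNDC5 window belongs to an internal start, 737 bases downstream of the 5′ end. Genes with and without an element were called higher. ERP29 and P4HB, of which the former was lower and the latter just under the threshold, had none of the 4 elements, nor had PDIA4, PDIA5, ERP44 or ERO1L, of which PDIA4, PDIA5 and ERO1L were called higher. A match or its lack describes these letters in this window and says nothing of binding.

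Most tested genes on a list of partners of these enzymes were called higher in PERK-KO cells. The list held proteins that need P4HB as a subunit (P4HA1, P4HA2, P4HA3, MTTP), the lectins and tapasin that work with PDIA3, BiP, and proteins that act with BiP, and 9 of the 11 were tested. Of these 9, 6 were called higher and 1 lower, beside 10.1% and 7.54% of all tested genes, with a median log2 fold change of 0.64. Split after the values were seen, the 4 genes for BiP and proteins that act with it were all called higher, and of the 5 partners of P4HB and PDIA3, CALR and CANX were called higher and TAPBP lower, with a median of 0.20. HSPA5, which encodes BiP, had 161 (158 to 164) in the WT library and 679 (672 to 685) in the PERK-KO library, a ratio of 4.21, next to the 4.08 of PDIA4. SDF2L1, part of a BiP co-chaperone complex, went from 64.0 to 176, MANF, which binds BiP, from 99.6 to 234, and DNAJB11, a BiP co-chaperone, from 54.3 to 97.0. CALR, the most abundant of them and a lectin partner of PDIA3, had 688 (679 to 697) and 1050 (1038 to 1062), a ratio of 1.53, and it was not called when the libraries were rescaled to a common median. CANX, calnexin, had 164 and 256, and its call was lost after the length correction. The prolyl hydroxylase subunits P4HA1 and P4HA2, which need P4HB, had log2 fold changes of 0.19 and 0.20 and were not called. TAPBP, the tapasin that binds PDIA3 in the loading of class I molecules, was the 1 lower gene, with 19.6 and 12.5. CANX, the 2 hydroxylase subunits and TAPBP were named after their values were seen.

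The other ER members of the isomerase family had a median log2 fold change of 0.02, beside 0.04 over all tested genes. When the libraries were rescaled to a common median, these values were -0.01 and 0.003. Of 14 such genes 10 were tested, with 2 called higher, 1 lower and 7 not called, beside 10.1% higher and 7.54% lower of all tested genes. DNAJC10 (ERdj5), a disulfide reductase that aids degradation, had 17.9 (16.9 to 18.9) and 28.7 (27.3 to 30.1), a ratio of 1.60 whose call was lost after the length correction. TXNDC11, another partner of ER degradation factors, had 20.6 and 33.1, a ratio of 1.61. PDIA2, the pancreatic isomerase, was lower, with 6.43 (5.51 to 7.36) and 3.78 (3.03 to 4.54). TMX2, the most abundant of this list and a membrane-bound relative, had 84.0 (80.0 to 88.1) and 77.0 (72.9 to 81.1), with overlapping limits. Its value was higher in PERK-KO cells if each library is divided by its sum, which moves the median of all tested genes to 0.24.

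Genes that handle thiols in the ER beside ERO1 were mixed. Of 10 tested genes of 11 listed, 2 were called higher and 1 lower, beside 10.1% and 7.54% of all tested genes, with a median of 0.12. CRELD2, a stress-induced ER protein with isomerase-like activity, went from 47.2 (43.9 to 50.5) to 104 (97.8 to 110), and its relative CRELD1 from 4.99 (4.30 to 5.68) to 11.8 (10.7 to 12.9). SUMF1, the formylglycine-generating enzyme, was lower, with 12.6 and 7.78. PRDX4, the peroxiredoxin that uses the peroxide made by ERO1 and the most abundant gene of the list, had 906 (890 to 922) in the WT library and 662 (647 to 676) in the PERK-KO library, a log2 fold change of -0.45 that was not called. Of 6 tested ER selenoprotein genes of 7 rows found, 2 were called higher and 1 lower, beside the same 10.1% and 7.54%. The higher ones were SELK with 48.6 and 77.7 and VIMP, a component of the degradation machinery, with 55.2 and 83.3. The call of VIMP was lost when the libraries were rescaled to a common median. SELM, a thioredoxin-like selenoprotein and the most abundant of them, was lower, with 348 (336 to 360) and 214 (204 to 224). The lower calls of PDIA2, SUMF1, SELM and TAPBP were lost when each library was divided by its sum, where 3.82% of all tested genes were called lower. That of SELM was also lost after the correction for transcript length.

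Of 19 thioredoxin, glutaredoxin and peroxiredoxin genes of the cytosol and mitochondria, none was called higher and 1 lower, beside 10.1% and 7.54% of all tested genes. The lower gene was TXNDC17, a thioredoxin-like reductase, with 22.9 and 12.5. After the length correction, or division of each library by its sum, 1 gene of this list was called higher, beside 6.32% and 20% of all tested genes. The median was -0.20, beside 0.04 over all tested genes. When each library was divided by its sum it was 0.0006, beside 0.24 over all tested genes. Rescaling to a common median gave 3 lower calls, beside 8.63% of all tested genes. TXN, the cytosolic thioredoxin, had 729 (696 to 763) and 489 (465 to 513), and its log2 fold change of -0.58 was just short of the threshold. In the disulfide relay of the mitochondrial intermembrane space, CHCHD4 and GFER do what isomerases and ERO1 do in the ER. Its median was -0.23 over 10 genes, with none higher and 3 lower, beside 10.1% and 7.54% of all tested genes. All 3 calls were lost after correction for transcript length by a running median, which moved the median of the list to -0.09. With division of each library by its sum the median was -0.02, beside 0.24 over all tested genes. Of the 3 only COX17 was then still called lower, beside 3.82% of all tested genes. The 3 genes were the relay substrates COX17 (266 and 153), TIMM10 (131 and 86.2) and TIMM13 (107 and 70.6). CHCHD4 itself had 15.8 and 16.9 and GFER 44.01 and 37.2, neither of them called, and both were named after their values were seen. The 4 genes of glutathione synthesis and cystine uptake had a median of 0.48, with 1 called higher, beside 10.1% of all tested genes. With division of each library by its sum 3 were called higher, beside 20% of all tested genes. SLC7A11, the cystine transporter, rose from 2.35 (2.11 to 2.60) to 7.86 (7.31 to 8.40), a ratio of 3.34. GCLM and GCLC, the subunits of the enzyme that makes γ-glutamylcysteine, had log2 fold changes of 0.57 and 0.38, with separate limits, and were not called. They were named after their values were seen. GSS, the most abundant of these, had 60.3 (57.7 to 63.0) and 53.1 (50.4 to 55.7) and was not called. Its sign turned when each library was divided by its sum, which moved the median of all tested genes to 0.24.

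**Figure D5:**
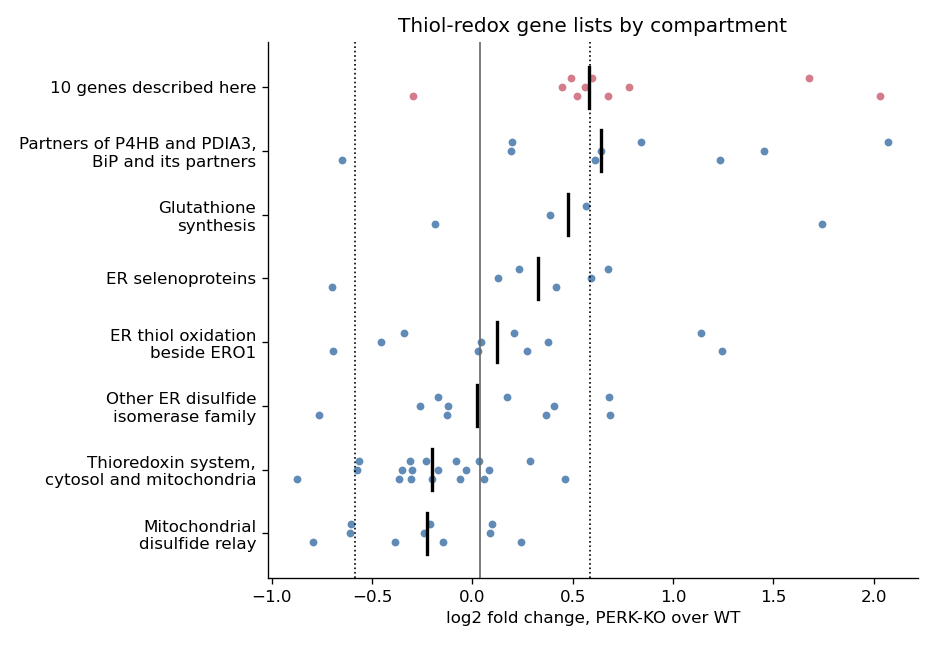
Log2 fold change (PERK-KO over WT) of each tested gene (points) and the median (black bar) for the 10 genes and 7 thiol-redox lists by compartment; the grey line is the median of all tested genes and the dotted lines mark 1.5-fold. Without rescaling or length correction, the medians run from 0.64 for the list that joins partners of P4HB and PDIA3 with BiP and its partners to -0.23 for the mitochondrial relay.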

How the data were processed

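Polyadenylated RNA of WT and PERK-KO HEK293 cells, 1 library each, was sequenced. Per the submitters' processing notes, the authors used TopHat2 2.0.13, Cufflinks 2.2.1 and hg19 (GRCh37). The deposited tables hold FPKM per gene with confidence limits. FPKM is not a count, so no count model was used. No columns of per-sample values were left unused.

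The deposited limits were read as 2 SD on each side. A fold change is PERK-KO over WT, without a pseudocount, and its 95% interval was propagated from the limits. A gene was called past 1.5-fold, provided that it reached an FPKM of 1 in either library. With 1 library per genotype no test was possible. Lists were described by counts and medians. The named genes are the 10 genes, EIF2AK3, for each list up to 4 genes with the largest calls and separate limits, and its most abundant gene. Exceptions are marked. The 10 genes and the lists were chosen with earlier results of these data known.

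Exons and lengths came from GENCODE 44 on GRCh37, and promoter windows from RefSeq on GRCh38.p14. Protein sequences were not used here. Alternatives were pseudocounts, scalings, filters, thresholds, limits, length and summed rows. Calculations were tested on simulated data. Python 3.11.15, numpy 2.4.6, pandas 2.3.3 and matplotlib 3.10.9 were used.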

Additional observations from a re-analysis of the deposited data

How the results depend on the processing

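The 10 genes kept the sign of their change under each of 9 alternatives of pseudocount, scaling, transcript length and summed rows. The number of them called higher was 5. It was 4, without PDIA5, with 1 FPKM added, where 6.47% of all tested genes were called higher. Rescaling to a common median, 75th percentile or weighted trimmed mean also gave 4, without PDIA5, beside 8.98%, 9.13% and 8.88% of all tested genes. The number was 2 at 2-fold, which 3.28% of all tested genes passed upwards. At 1.4-fold, a threshold chosen after seeing the data, it was 8, and 14.2% of all tested genes passed that threshold upwards and 10.6% downwards. At 1.2-fold, which 28.9% of all tested genes passed upwards and 22.4% downwards, 9 were higher and 1 lower, as with separate limits alone. Division by the sum of each library, also chosen after seeing the data, added 0.20 to every log2 fold change. Relative to that shift no gene's change differed. This division gave 9 higher, where 20% of all tested genes were called higher and 3.82% lower. The median became 0.78 over the 10 genes and 0.24 over all tested genes. Of all calls, 84.0% were then higher, in comparison with 57.4%. Subtracting the running median over length left the same 5 calls, beside 6.32% of the 13494 tested genes with a known length. ERO1L was then at 0.592 and ERO1LB at 1.48 on the log2 scale. ERO1L thus lay just above the threshold, by less than its counting SE of 0.07, and P4HB, at 0.583, lay just below it.

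Over all tested genes, 1481 were higher and 1100 lower. The counts were 3298 and 2555 without a filter, 872 and 702 with an FPKM of at least 5, 853 and 695 with the length correction, 2915 and 557 with division by the sum, 479 and 304 at 2-fold, 4215 and 3262 at 1.2-fold, and 3810 and 2722 with separate limits alone. With 1 FPKM added 944 were higher. No paired analysis was possible because each genotype has 1 library, and leaving out a replicate was not run for the same reason. The limits cover the error of the estimate within 1 library and not the spread between cultures or clones.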

Other observations

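The RefSeq windows with an exact ERSE belonged to 25 genes, of which 20 were in the gene tables and 16 were tested. Of these 16, 13 were called higher and 0 lower in PERK-KO cells, beside 10.1% and 7.54% of all tested genes, and PDIA6 and ERO1LB are 2 of the 13. The number called higher was 11 with rescaling to a common median, without CALR and EIF2A, beside 8.98% of all tested genes. It was 10 with the length correction, beside 6.32%. Both alternatives were added after seeing the data. Of the other 14 tested genes, 11 were called higher. The following were named after their values were seen. HSP90B1, which encodes the ER chaperone GRP94, had an FPKM of 401 in WT and 848 in PERK-KO cells. XBP1, which encodes a transcription factor of the unfolded protein response that binds ERSE, had 97.6 and 187. FICD, an enzyme that modifies BiP, had 2.02 and 4.76, and SERP1, a translocon-associated protein, had 39.3 and 65.5. HSPA5, CALR and CRELD2, described above, are also among the 13, and so is CANX, a lectin partner of PDIA3, with 164 and 256. The rest of the 13 were TRIM5 with 9.58 and 17.1, ALG12 with 17.4 and 29.6, and EIF2A with 22.6 and 34.0. The 3 that were not called higher were FRG2C with 1.05 and 0.815, ZNF17 with 2.08 and 2.39, and TMEM120A with 13.9 and 9.89. Each value is from 1 library per genotype, the overlap of a motif with a change is a description, and binding was not measured.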
